A study of Homo sapiens with 8 samples.

Results

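MYC is a transcription factor that binds DNA as a dimer with MAX, and MAX is in turn shared with proteins that oppose MYC. The genes described here are MYC, its partner MAX, the MAX-binding repressors MXI1, MXD3, MXD4, MNT and MGA, and MLX, which pairs with MondoA and with some of the repressors. They were chosen as a fixed list of 8 genes of 27424 in the table of all reads, and 7 of them are among the 6993 genes of the table of converted reads, from which MXI1 is missing. For each gene the transcript row with the highest mean over the libraries was kept.

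NALM6 is an established human precursor B-cell acute lymphoblastic leukaemia line, here carrying a doxycycline-inducible gene for HMGN1, a small protein that binds nucleosomes. The induced mutant group is the line with HMGN1 S20,24E, a form deficient in nucleosome binding, given doxycycline (2 libraries), and the induced wild type group is the line with wild-type HMGN1, given doxycycline (3 libraries). The vehicle group is that same wild-type line, with its uninduced construct, given vehicle (3 libraries). Doxycycline at 100 ng/ml or vehicle was given for 6 h. All 3 groups received 4-thiouridine at 100 µM over the final 5 h, which marks newly made RNA and is read as T-to-C conversions (SLAM-seq). Each library is a biological replicate with a letter from A to C. An uninduced group of the mutant line was not used here, so that the mutation and any other difference between the lines cannot be told apart. Both induced groups received doxycycline and vehicle did not. In comparisons with vehicle, HMGN1 induction and doxycycline itself therefore cannot be told apart. For the induced mutant the difference in line is added to these. In these bulk samples fewer cells of a type and less RNA per cell cannot be told apart either.

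The libraries held 7.99 to 17.7 M reads, and read-weighted conversion rates were 3.41 and 4.65% in the induced mutant, 3.39 to 5.20% in the induced wild type and 2.64 to 4.50% in vehicle. HMGN1 itself had 223 and 200 CPM (reads per M reads of the library) in the induced mutant, 252, 217 and 317 CPM in the induced wild type, and 191, 153 and 145 CPM in vehicle, so every induced library lay above every vehicle library. All 13 markers of precursor B cells had a mean of at least 1 CPM. None of 4 T-cell, 3 erythroid or 3 fibroblast markers did, while 2 of 5 myeloid markers did, with summed levels of 341 to 427 CPM in the induced mutant, 362 to 437 CPM in the induced wild type and 419 to 514 CPM in vehicle. The part of that spread in the results below was not tested.

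MYC-MAX dimers bind the E-box CACGTG and recruit acetyltransferase and elongation complexes, whereas dimers of MAX with MXD proteins, MXI1 or MNT occupy the same sites with SIN3 and HDAC corepressors. MYC RNA and protein are both short-lived, and in many leukaemias MYC drives ribosome production and growth. MGA brings MAX into a Polycomb repressive complex, and MLX with MondoA (gene MLXIP) senses glucose metabolites and induces TXNIP.

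Promoters were taken from RefSeq (GRCh38.p14), from 250 bases before to 50 bases after the transcript start. No promoter of MYC was used, so MYC was not searched, and 12 promoters of the other 7 of the 8 genes were found. CACGTG, which reads the same on both strands, was present in 3 of them, in MXD4, MNT and MLX, and in 7.26% of all 35116 promoters of that length. The 30 bases around each match are shown because CACGTG is the site that the dimers of this network bind, and capitals mark it. The match is only a match of letters in this window. The MXD4 promoter is chr4:2262060-2262359 on the minus strand, with the match at -238 from the start. The MNT promoter is chr17:2401011-2401310 on the minus strand, with the match at -193. The MLX promoter is chr17:42566850-42567149 on the plus strand, with the match at -50.
MXD4: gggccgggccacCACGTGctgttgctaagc
MNT: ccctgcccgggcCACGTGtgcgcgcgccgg
MLX: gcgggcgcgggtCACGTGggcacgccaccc

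All 8 RNAs were detected in every library, and in all reads 0 of the 8 had groups that did not overlap on the kept rows, against 16.0% of all genes between induced mutant and vehicle, 15.0% between induced mutant and induced wild type and 4.04% between induced wild type and vehicle. MYC had 53.8 and 47.9 CPM in the induced mutant, 57.9, 50.0 and 76.4 CPM in the induced wild type, and 36.8, 73.5 and 80.9 CPM in vehicle. The vehicle libraries hold both the lowest and the highest MYC value, and the other groups lie between them. These values rest on 558 and 556 reads in the induced mutant, 833, 399 and 1054 in the induced wild type, and 327, 846 and 1435 in vehicle. Mean MYC was 50.9 ± 4.17 CPM in the induced mutant (SD, n = 2), 61.4 ± 13.5 CPM in the induced wild type (SD, n = 3) and 63.7 ± 23.6 CPM in vehicle (SD, n = 3). Vehicle C had 2.20 times the MYC level of vehicle A. The median gene differed 1.39-fold between those libraries, which placed MYC at the 89.0th percentile of 8724 genes.

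MAX, the partner that MYC needs to bind DNA, had 34.4 and 24.7 CPM in the induced mutant, 33.0, 23.3 and 39.1 CPM in the induced wild type, and 19.8, 30.1 and 37.5 CPM in vehicle. MLX had 36.8 and 25.0 CPM in the induced mutant, 33.5, 26.7 and 37.9 CPM in the induced wild type, and 19.6, 30.7 and 35.7 CPM in vehicle. Both genes spread nearly as widely within a group as over all libraries. The repressor MNT had 9.64 and 5.60 CPM in the induced mutant, 7.51, 7.64 and 12.2 CPM in the induced wild type, and 3.60, 8.60 and 9.41 CPM in vehicle. MGA had 10.4 and 6.64 CPM in the induced mutant, 9.25, 6.64 and 16.4 CPM in the induced wild type, and 4.50, 9.29 and 9.64 CPM in vehicle. MYC, MAX, MLX, MNT and MGA were all at their lowest in vehicle A, the library with the lowest read-weighted conversion rate, and all but MYC were at their highest in induced wild type C, the library with the highest. The part of this in the group means was not tested.

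MXI1, MXD3 and MXD4 complete the set of repressors. MXI1, an MXD-family repressor, was near the limit of detection, at 3.76 and 2.33 CPM in the induced mutant, 3.27, 1.13 and 4.64 CPM in the induced wild type, and 2.47, 3.65 and 3.49 CPM in vehicle, from 9 to 64 reads. MXD4 was the steadiest of the 8, at 20.7 and 21.3 CPM in the induced mutant, 20.4, 17.0 and 23.0 CPM in the induced wild type, and 19.1, 22.1 and 20.3 CPM in vehicle, a 1.35-fold range over the 8 libraries. MXD3, the family member known for expression in dividing cells, had 70.8 and 95.2 CPM in the induced mutant, 94.5, 99.3 and 77.6 CPM in the induced wild type, and 114, 97.6 and 92.3 CPM in vehicle. Its highest library was vehicle A, where most of the others were lowest.

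**Figure D1:**
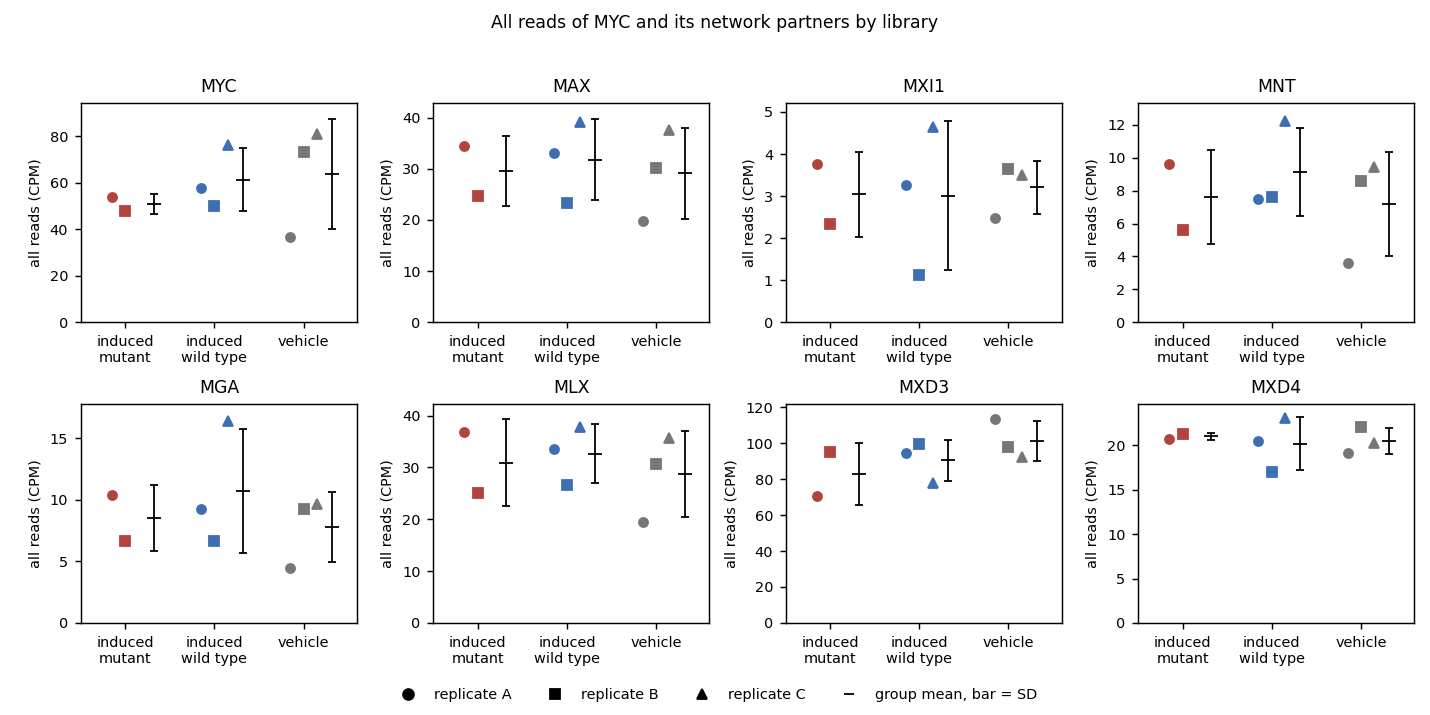
All reads (CPM, y axis) of the 8 genes in every library by group, with markers for replicates A, B and C and black bars for the group mean and SD. The groups overlap in each panel, and vehicle A is the lowest library for MYC, MAX, MNT, MGA and MLX.

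In all reads 0 of the 8 genes passed in any comparison (limma over 12458 genes, Benjamini-Hochberg adjusted p below 0.05), and 0 had an unadjusted p below 0.05. Over all genes 0.0321% passed between induced mutant and vehicle, 0.0321% between induced mutant and induced wild type, and 0.0% between induced wild type and vehicle. The count models edgeR and DESeq2 on the recovered reads also called 0 of the 8. Fold changes of the 8 ran from -0.29 to 0.15 on the log2(CPM + 1) scale between induced mutant and vehicle, from -0.25 to 0.10 between induced mutant and induced wild type, and from -0.17 to 0.39 between induced wild type and vehicle. Medians over the 8 were 0.04, -0.11 and 0.07 in that order, beside -0.04, -0.12 and 0.09 for all genes tested. For MYC the log2 fold changes were -0.24 ± 0.31 between induced mutant and vehicle, -0.25 ± 0.31 between induced mutant and induced wild type, and 0.00 ± 0.28 between induced wild type and vehicle (SE, limma adjusted p at or above 0.997), the last changing sign under other scalings. The 3 comparisons share libraries with each other. Standard errors of this size leave differences of the order of the estimates undecided, and a missed threshold does not show equal levels.

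The conversion rate, as deposited per transcript row, rises with the newly made part of an RNA. MYC was converted at 9.97 and 7.69% in the induced mutant, 9.41, 9.46 and 10.7% in the induced wild type, and 8.97, 9.88 and 10.0% in vehicle. These rates lay between the 83.5th and 95.4th percentile of 8724 genes with a mean of at least 5 CPM, and above the median gene of every library, which ran from 4.93 to 7.32%. For comparison, 8 RNAs of the short-lived class, such as JUN and MCL1, had median rates of 7.34 to 10.3%, and 10 long-lived RNAs, such as GAPDH and ACTB, had medians of 0.929 to 2.20%. MYC was the most converted of the 8 genes in 7 of 8 libraries. In the remaining library, induced wild type B, MXI1 was higher at 10.9%, from 9 reads.

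MNT came next, with a median percentile of 78.7 over the libraries, followed by MGA with 63.9. MNT was converted at 9.27 and 7.44% in the induced mutant, 8.05, 8.38 and 9.76% in the induced wild type, and 6.40, 6.74 and 8.55% in vehicle. MAX, MLX and MXD4 lay near the middle of all genes, with median percentiles of 48.5, 48.8 and 48.6, and they do not differ from each other beyond their spread. On its kept row MXD3 was the least converted of the 8 in all 8 libraries, at 1.40 and 0.785% in the induced mutant, 2.51, 1.57 and 2.16% in the induced wild type, and 1.22, 1.83 and 2.16% in vehicle. That is the 4.13th to 10.7th percentile, near the medians of the long-lived RNAs.

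**Figure D2:**
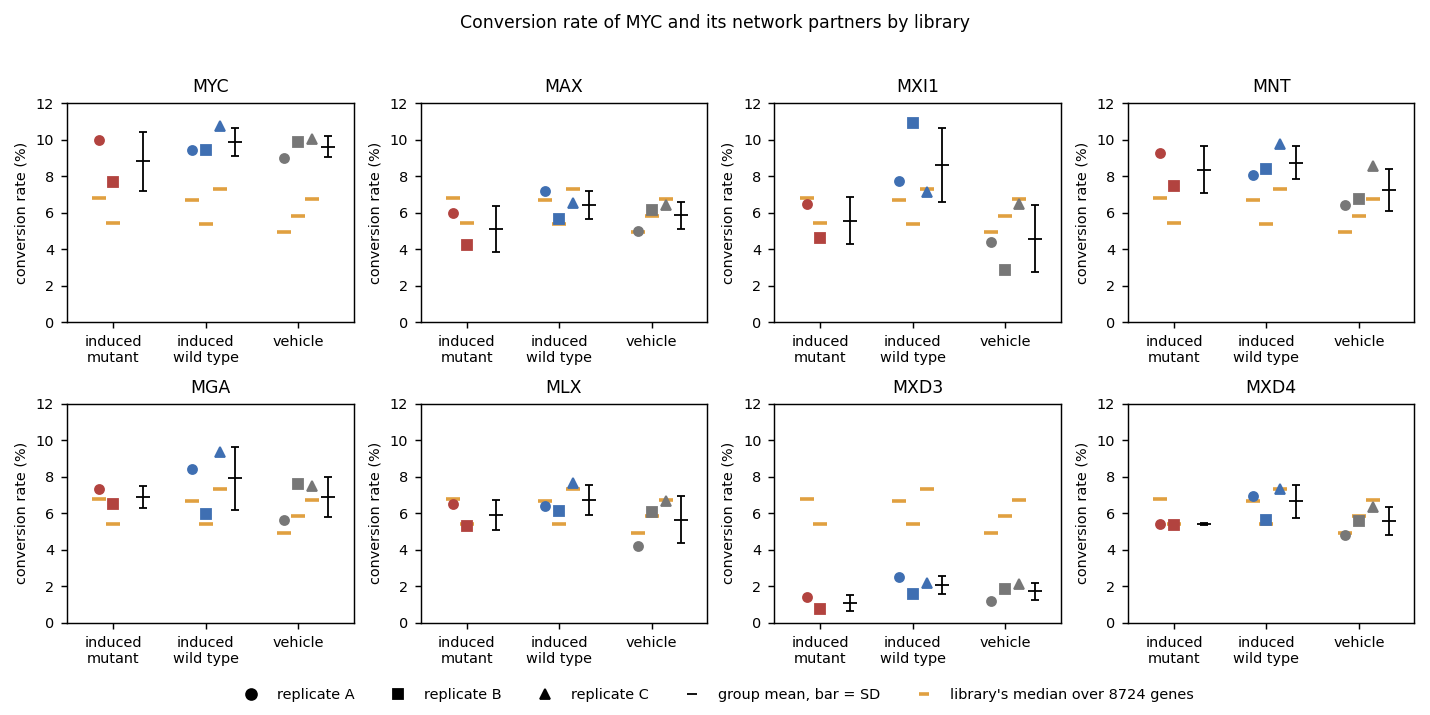
Conversion rate (%, y axis) of the 8 genes in every library by group, with black bars for the group mean and SD and yellow ticks for the median of 8724 genes in the same library. MYC lies above the yellow tick in each library and the kept row of MXD3 lies far below it.

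The low rate of MXD3 belongs to 1 of its 2 transcript rows. The kept row, NM_001142935, reaches in the annotation into PRELID1, a neighbouring gene on the opposite strand that encodes a mitochondrial lipid transfer protein, and the other row, NM_031300, does not. The use of strand in counting is not given in the sources used here. PRELID1 had 116 and 134 CPM in the induced mutant, 127, 125 and 110 CPM in the induced wild type, and 131, 139 and 130 CPM in vehicle, with rates of 2.48 to 4.23% over the libraries. The kept row exceeded the other by 54.5 to 87.4 CPM, which is 68.9 to 83.1% of the kept value. How many of those reads come from PRELID1 was not tested.

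Read from the row without overlap, MXD3 was among the most converted genes, and its induced mutant libraries were the lowest in all reads. It had 12.9 and 16.1 CPM in the induced mutant, 29.4, 27.3 and 23.1 CPM in the induced wild type, and 26.3, 26.6 and 26.1 CPM in vehicle, from 134 to 463 reads. Both mutant libraries lie below all 6 wild-type libraries, and induced wild type and vehicle overlap. Means were 14.5 ± 2.26 CPM in the induced mutant (SD, n = 2), 26.6 ± 3.20 CPM in the induced wild type (SD, n = 3) and 26.3 ± 0.241 CPM in vehicle (SD, n = 3). The difference was 0.565-fold (log2 -0.82, SE 0.18) between induced mutant and vehicle and 0.562-fold (log2 -0.83, SE 0.18) between induced mutant and induced wild type, on the log2(CPM + 1) scale.

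Neither difference passed over all genes. The limma adjusted p was 0.462 between induced mutant and vehicle, where MXD3 ranked 31 of 12458 by p, and 1.000 between induced mutant and induced wild type, where it ranked 11. Between induced wild type and vehicle the log2 fold change was 0.01 (SE 0.16, adjusted p 0.996). Groups without overlap were common among all genes in these comparisons, as given above. The row was chosen after its values were seen. Leaving out each library in turn gave log2 values of -0.97 to -0.67 between induced mutant and vehicle and -0.98 to -0.68 between induced mutant and induced wild type.

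The conversion rate of that row was 10.7 and 7.06% in the induced mutant, 10.9, 8.59 and 9.09% in the induced wild type, and 7.54, 9.51 and 10.1% in vehicle, between the 75.2nd and 95.9th percentile. Here the groups overlap, and the rate is 4.20 to 9.0 times that of the kept row in the same library. With this row, MYC was the most converted of the 8 genes in 4 of 8 libraries and MXD3 in 3. Newly made RNA of this row, taken as CPM multiplied by the conversion fraction, was 1.38 and 1.14 in the induced mutant, 3.21, 2.35 and 2.10 in the induced wild type, and 1.99, 2.53 and 2.63 in vehicle. Since the fraction is not a share of reads, this product is an index and not an amount of newly made RNA. Both mutant libraries are again the lowest, with a log2 fold change of -0.92 (SE 0.29; adjusted p 0.387, limma) between induced mutant and vehicle and -0.75 (SE 0.29, adjusted p 0.999) between induced mutant and induced wild type.

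**Figure D3:**
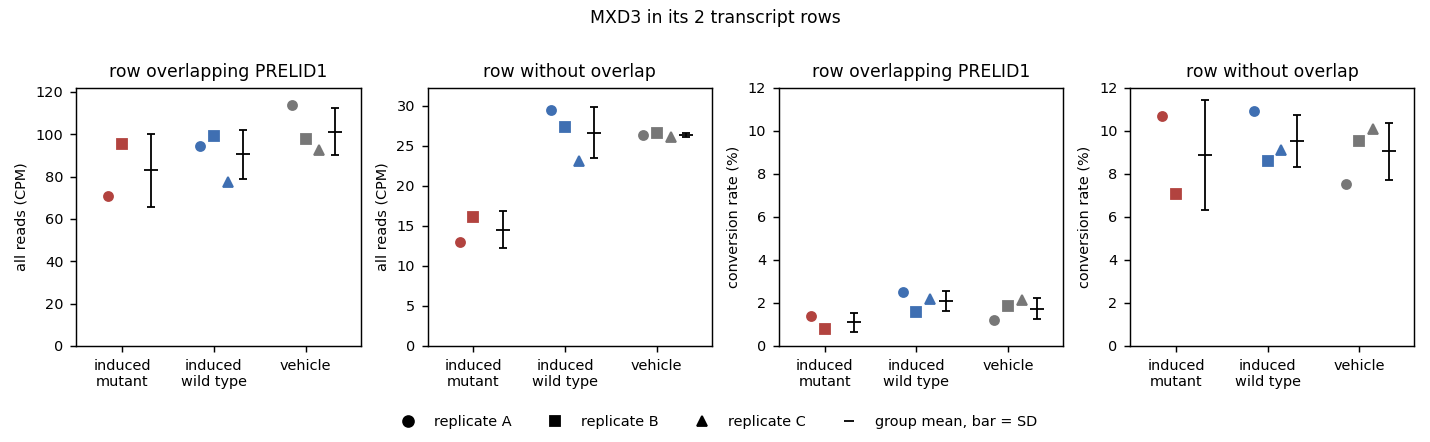
MXD3 in the transcript row whose span overlaps PRELID1 and in the row without that overlap, as all reads (CPM, left panels, different y scales) and conversion rate (%, right panels), by group, with black bars for the mean and SD. In the row without overlap the induced mutant libraries, at 12.9 and 16.1 CPM, lie below all others, and the rate is 7.06 to 10.9% in place of 0.785 to 2.51%.

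MAX has a similar arrangement with a smaller gap between rows. Its kept row, NM_197957, overlaps FNTB, the beta subunit of farnesyltransferase, on the opposite strand, and NM_145113 does not. The row without overlap had 23.1 and 16.8 CPM in the induced mutant, 23.2, 16.4 and 26.4 CPM in the induced wild type, and 15.1, 21.7 and 26.1 CPM in vehicle. The kept row was higher by 4.72 to 12.8 CPM, 23.9 to 32.8% of its value. Rates in the row without overlap were 1.11 to 1.33 times those of the kept row, with a median percentile of 66.3. The groups overlap in both rows. MLX shares its end with PSMC3IP in all of its rows, and PSMC3IP had 16.1 to 23.8 CPM.

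Conversion rates were also compared between groups. MXI1 fell under the limit of 5 CPM for this test, and 0 of the other 7 passed (limma over 8724 genes, of which 0.0% passed in each comparison). An unadjusted p below 0.05 (limma) was found for 730 of all 8724 genes between induced mutant and vehicle. It was found for 457 between induced mutant and induced wild type and for 411 between induced wild type and vehicle. Of the kept rows, that of MXD3 had one in both comparisons with the mutant and no other had one in any comparison. Its log2 fold change was -0.56 (SE 0.16, adjusted p 0.408) between induced mutant and vehicle and -0.64 (SE 0.16, adjusted p 0.748) between induced mutant and induced wild type, after each library's median was set to 0, beside -0.11 and -0.05 in the row without overlap. MAX differed by -0.25 (SE 0.11, limma adjusted p 0.599) between induced mutant and vehicle. In its row without overlap MAX differed by -0.25 (SE 0.10; unadjusted p 0.0383, adjusted p 0.585, limma) between induced mutant and vehicle and by -0.24 (SE 0.10; unadjusted p 0.0471, adjusted p 0.940, limma) between induced mutant and induced wild type. MXD3 and MXD4 were the genes whose induced mutant and induced wild type libraries did not overlap in rate, 2 of 7 against 9.97% of all genes. No gene of the 7 was without overlap between induced mutant and vehicle (0 of 7, against 9.22% of all genes) or between induced wild type and vehicle (0 of 7, against 5.12%).

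The index of newly made RNA gave 0 of 7 genes past the threshold in each comparison. MXD3 alone of the kept rows had an unadjusted p below 0.05, in both comparisons with the mutant. Such a p was found for 714 of all 9655 genes between induced mutant and vehicle (limma). Between induced mutant and induced wild type it was found for 287. Over all 9655 genes tested by limma, 0.0414% passed between induced mutant and vehicle, 0.0% between induced mutant and induced wild type and 0.0207% between induced wild type and vehicle. MYC had 5.37 and 3.68 in the induced mutant, 5.45, 4.73 and 8.20 in the induced wild type, and 3.30, 7.26 and 8.10 in vehicle. The lowest value is again vehicle A, and the groups overlap. After median centring MYC differed by log2 -0.43 (SE 0.21, limma adjusted p 0.699) between induced mutant and vehicle, -0.22 (SE 0.21, adjusted p 0.999) between induced mutant and induced wild type, and -0.21 (SE 0.19, adjusted p 0.981) between induced wild type and vehicle. The kept row of MXD3 had 0.992 and 0.747 in the induced mutant, 2.37, 1.56 and 1.68 in the induced wild type, and 1.38, 1.79 and 1.99 in vehicle. Both mutant libraries are the lowest, with log2 -0.97 (SE 0.26, limma adjusted p 0.246) between induced mutant and vehicle. It was 1 of 7 genes whose induced mutant and vehicle libraries did not overlap, against 8.75% of all genes, and 1 of 7 against 9.86% between induced mutant and induced wild type.

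**Figure D4:**
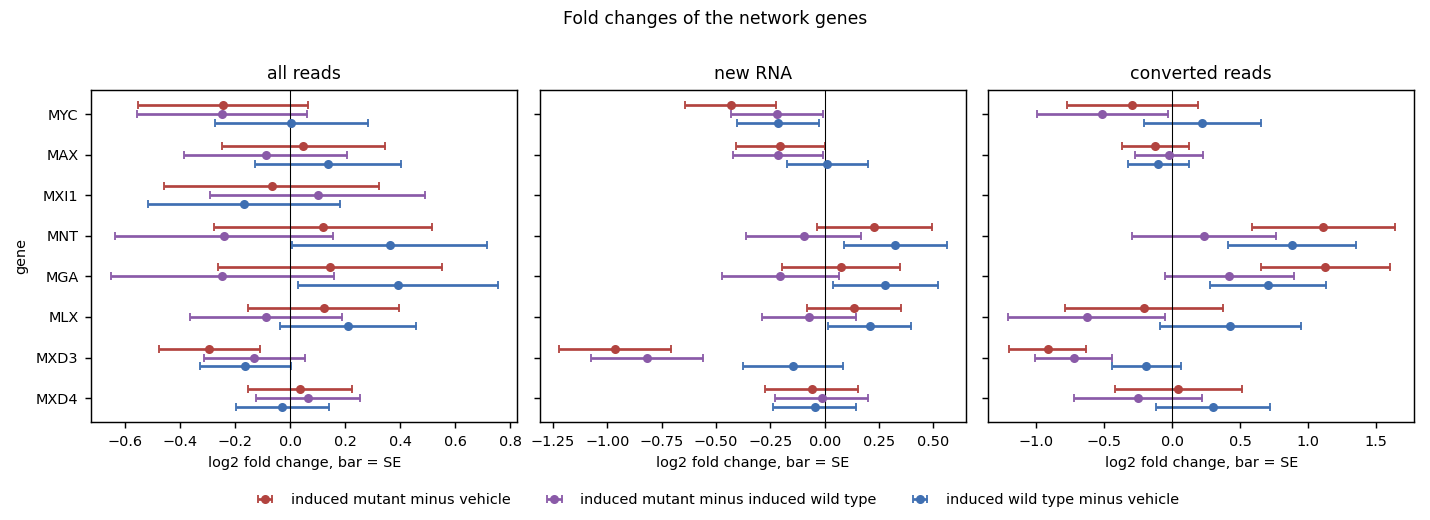
Log2 fold changes (x axis, bars are SE) of the 8 genes (y axis) in all reads, newly made RNA and converted reads, for induced mutant minus vehicle (red), induced mutant minus induced wild type (purple) and induced wild type minus vehicle (blue), on the kept rows. Most bars cross or approach 0. Between induced mutant and vehicle, MXD3 lies at -0.97 in newly made RNA, and MGA lies at 1.12 in converted reads but at 0.07 in newly made RNA.

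In the authors' table of converted reads (FPKM) MYC, MNT, MGA, MLX and MXD4 had their lowest library in vehicle A. MXD3 had its lowest libraries in the induced mutant. Vehicle A also had the lowest FPKM summed over all genes, at 28206.5, where the other libraries ran from 34171.1 to 44733.3. The part of this in the differences from vehicle was not tested. In converted reads 0 of 7 genes passed in any comparison. Over all 5737 genes 0.401% passed between induced mutant and vehicle and 0.0% in each of the other comparisons (limma). An unadjusted p below 0.05 (limma) was found for MGA and MXD3 between induced mutant and vehicle and for MXD3 between induced mutant and induced wild type. Adjusted over all 5737 genes, the lowest p of the 7 genes was 0.186 and 0.9999 in those comparisons. An unadjusted p of this size therefore does not set these genes apart. MNT had 3.86 and 1.96 FPKM in the induced mutant, 1.11, 3.91 and 2.25 FPKM in the induced wild type, and was listed at 0, 1.90 and 0.87 FPKM in vehicle. MGA had 2.08 and 1.95 FPKM in the induced mutant, 0.67, 0.98 and 2.46 FPKM in the induced wild type, and was listed at 0, 0.96 and 0.35 FPKM in vehicle. The mutant libraries of both genes lie above all vehicle libraries, and the induced wild type libraries overlap both. On the log2(FPKM + 1) scale MGA differed by 1.12 (SE 0.47, limma adjusted p 0.364) and MNT by 1.11 (SE 0.53, adjusted p 0.428) between induced mutant and vehicle, where the median gene differed by 0.17. Between induced wild type and vehicle MGA differed by 0.70 (SE 0.42, limma adjusted p 0.685) and MNT by 0.88 (SE 0.47, adjusted p 0.658), beside 0.23 for the median gene. The other readouts gave smaller differences between induced mutant and vehicle, with overlapping groups. In the index of newly made RNA these were 0.07 (SE 0.27) for MGA and 0.23 (SE 0.26) for MNT. In all reads they were 0.15 (SE 0.41) and 0.12 (SE 0.40).

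MXD3 had 10.7 and 15.0 FPKM in the induced mutant, 22.4, 24.4 and 18.45 FPKM in the induced wild type, and 31.45, 22.9 and 21.2 FPKM in vehicle. Its only row in this table is the one that overlaps PRELID1, which itself had 1.49 and 0.31 FPKM in the induced mutant, 2.89, 1.95 and 2.88 FPKM in the induced wild type, and 3.14, 2.54 and 3.14 FPKM in vehicle. Both genes have their lowest values in the mutant libraries. MXD3 differed by log2 -0.92 (SE 0.28, limma adjusted p 0.186) between induced mutant and vehicle, -0.73 (SE 0.28, adjusted p 1.000) between induced mutant and induced wild type, and -0.19 (SE 0.25, adjusted p 0.862) between induced wild type and vehicle. MNT, MGA and MXD3 were 3 of 7 genes whose induced mutant and vehicle libraries did not overlap, against 28.2% of all genes.

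MYC had 0.85 and 1.33 FPKM in the induced mutant, 1.36, 2.0 and 2.70 FPKM in the induced wild type, and 0.53, 1.64 and 3.10 FPKM in vehicle. Its mutant libraries lie below the induced wild type libraries, by log2 -0.52 (SE 0.48, limma adjusted p 1.000), and inside the range of vehicle. With MXD3 it made 2 of 7 genes without overlap in that comparison, against 17.0% of all genes. MAX had 41.8 and 37.1 FPKM in the induced mutant, 42.4, 32.7 and 46.3 FPKM in the induced wild type, and 37.7, 41.9 and 50.6 FPKM in vehicle, a log2 difference of -0.13 (SE 0.25, limma adjusted p 0.907) between induced mutant and vehicle. The only row of MAX in converted reads is the one that overlaps FNTB. MLX was listed at 0 in vehicle A and reached 3.27 FPKM in induced wild type C, and MXD4 ran from 2.10 to 7.95 FPKM, with all groups overlapping for both.

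**Figure D5:**
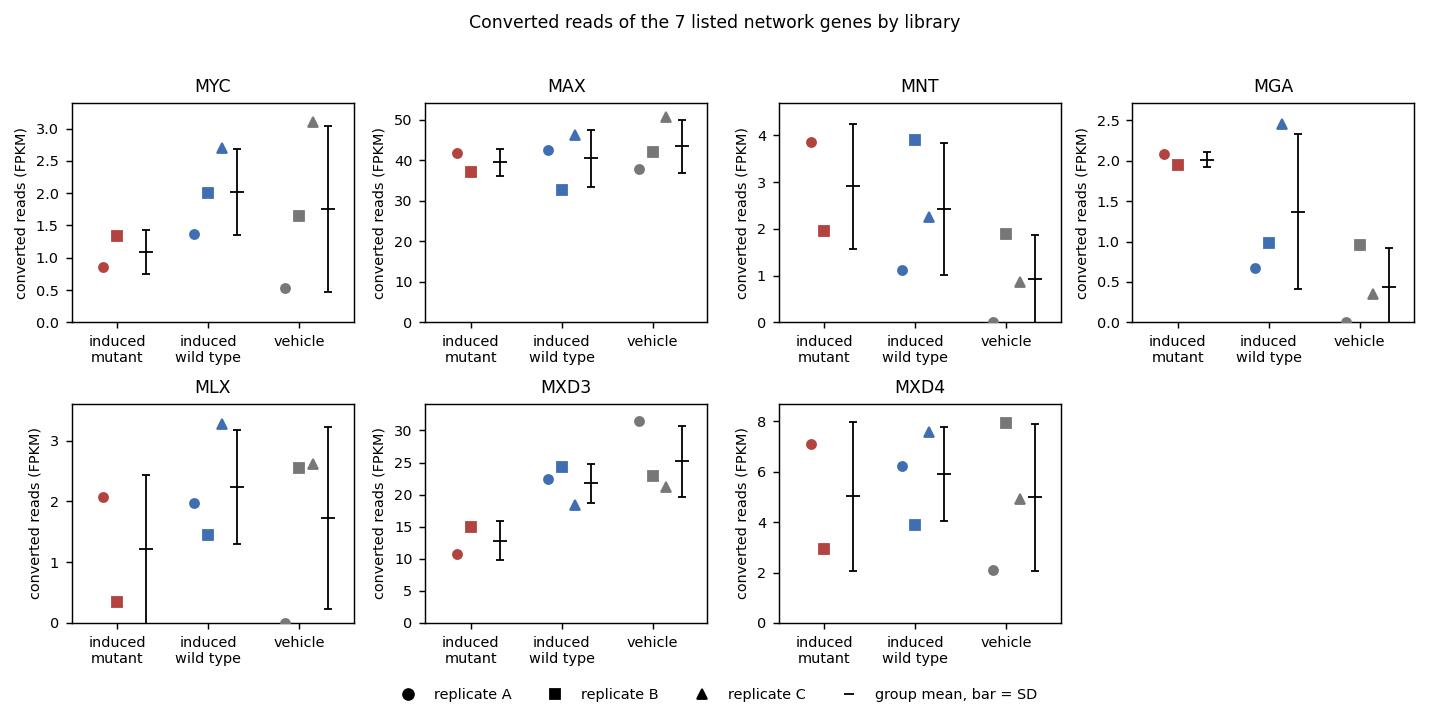
Converted reads (FPKM, y axis) of the 7 genes listed in the converted table, in every library by group, with black bars for the group mean and SD, drawn down to 0 at most. MGA, MNT and MLX are listed at 0 in vehicle A, and MXD3 is lowest in the induced mutant at 10.7 and 15.0 FPKM.

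Of the other genes of the extended network, MLXIP, which encodes MondoA, had 43.0 and 33.8 CPM in the induced mutant, 49.9, 40.4 and 67.4 CPM in the induced wild type, and 31.5, 46.8 and 50.6 CPM in vehicle. MXD1 had 2.51 and 1.90 CPM in the induced mutant, 2.36, 2.13 and 4.64 CPM in the induced wild type, and 1.35, 3.39 and 2.70 CPM in vehicle. MYCN had no read in any library, and MYCL and MLXIPL had means under 1 CPM. The MLX-MondoA targets are TXNIP, an inhibitor of glucose uptake, and its relative ARRDC4, named here after their values were seen. TXNIP had 14.9 and 13.2 CPM in the induced mutant, 26.7, 19.5 and 36.6 CPM in the induced wild type, and 16.9, 28.8 and 31.0 CPM in vehicle. Both mutant libraries lie below all others, with a log2 fold change of -0.77 (SE 0.31; adjusted p 1.000, limma) between induced mutant and vehicle and -0.88 (SE 0.31, adjusted p 1.000) between induced mutant and induced wild type. Groups without overlap made up 16.0% and 15.0% of all genes in those comparisons. ARRDC4 had 1.25 and 0.345 CPM in the induced mutant, 1.11, 0.751 and 2.68 CPM in the induced wild type, and 1.69, 2.08 and 1.69 CPM in vehicle, and the mutant overlaps the induced wild type.

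Among the genes that act with the network, NCOR1, a corepressor, had 10.1 and 6.18 FPKM in the induced mutant, 5.77, 3.42 and 9.40 FPKM in the induced wild type, and 2.62, 3.80 and 4.54 FPKM in vehicle (log2 0.96, SE 0.41, limma adjusted p 0.369 between induced mutant and vehicle). The mutant libraries lie above all vehicle libraries, and the induced wild type libraries overlap both. In converted reads 28.2% of all genes had no overlap between induced mutant and vehicle, in either direction. In all reads NCOR1 differed by log2 0.29 (SE 0.34) in that comparison, with overlapping groups.

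Genes of MYC protein turnover had a median log2 difference of 0.56 in converted reads between induced mutant and vehicle, beside 0.17 for all genes tested. Of the 7 tested, 6 were above 0, 0 passed the threshold (limma) and 1 had an unadjusted p below 0.05. Between induced wild type and vehicle the median of these genes was 0.73, beside 0.23 for all genes tested. There 6 of 7 were also above 0, 0 passed and 3 had an unadjusted p below 0.05 (limma), so the shift is not particular to the mutant. FBXW7, the ubiquitin ligase subunit that marks MYC for degradation, had 2.97 and 4.88 FPKM in the induced mutant, 1.11, 2.93 and 3.90 FPKM in the induced wild type, and was listed at 0, 0.63 and 1.57 FPKM in vehicle. Its mutant libraries lie above all vehicle libraries, with a log2 fold change of 1.58 (SE 0.51; adjusted p 0.216, limma). Of all genes, 28.2% had no overlap in this comparison. In all reads FBXW7 differed by log2 0.31 (SE 0.39) between induced mutant and vehicle, with overlapping groups. MYC cofactors had a median of 0.26 over 14 genes, and CDK9, the elongation kinase, had 3.28 and 1.64 FPKM in the induced mutant, 1.79, 1.97 and 1.23 FPKM in the induced wild type, and was listed at 0, 0.65 and 2.08 FPKM in vehicle. The MGA complex had a median of 0.33 over 4 genes, and in these lists, of 14 and 4 genes, 0 passed between induced mutant and vehicle and 0 had an unadjusted p below 0.05 (limma). Between induced wild type and vehicle the medians were 0.22 for the MYC cofactors and 0.51 for the MGA complex.

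Genes that MYC is known to induce, mostly of ribosome production, nucleotide synthesis and translation, gave 0 of 27 past the threshold in converted reads, with medians of 0.01 between induced mutant and vehicle, -0.09 between induced mutant and induced wild type and 0.09 between induced wild type and vehicle. All genes tested had 0.17, -0.04 and 0.23 in those comparisons. In all reads 0 of 32 passed, with medians of -0.01, 0.02 and 0.00 beside -0.04, -0.12 and 0.09 for all genes. In the index of newly made RNA 0 of 32 passed, with medians of -0.08, 0.07 and -0.14 beside -0.05, 0.00 and -0.04. Between induced mutant and induced wild type 24 of 32 were above 0 in that index, against 7 of 27 in converted reads, so the readouts differ in direction. The gene of this list with the smallest p between induced mutant and vehicle in converted reads was RRP9, a small nucleolar RNA-binding protein. Its log2 fold change was -0.75 (SE 0.38, limma adjusted p 0.464) there and -0.03 (SE 0.18) in all reads. MYC-repressed genes gave 0 of 2, and CDKN1A, the cell cycle inhibitor p21, differed by 0.58 (SE 0.37, limma adjusted p 0.618) between induced mutant and vehicle.

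The genes whose all-read profile lay closest to that of MYC over the 8 libraries were MAT2B, a regulatory subunit of methionine adenosyltransferase, FBXO41, an F-box protein, and CPSF7, a pre-mRNA cleavage factor. Their root mean square differences from the centred log2 profile of MYC were 0.072, 0.0865 and 0.0869, against a median of 0.318 over 3835 genes with a mean of at least 20 CPM. MAT2B had 20.5 and 18.7 CPM in the induced mutant, 23.0, 16.7 and 30.5 CPM in the induced wild type, and 13.9, 28.0 and 30.0 CPM in vehicle, so that it shares the low value in vehicle A and the high values in vehicle C and induced wild type C. MAX ranked 422 and MLX 659 by this measure. In converted reads the closest profiles among 1962 genes with a mean of at least 5 FPKM included SRSF5, a splicing factor (difference 0.159), and PDE4DIP, an anchoring protein of the centrosome (0.221), against a median of 0.496.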

How the data were processed

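Per the labels' protocols, thiol-modified RNA (4 µg of total RNA) went into stranded mRNA libraries, and the genome build is hg19, per the submitters' processing notes. Neither aligner nor conversion caller is named, and which bases of a transcript were counted, and whether by strand, is not given in the sources used here. All reads were deposited as a signal per transcript named CPM, of which 100.0% were whole reads within 0.1 read. Conversion was deposited as a fraction per transcript, whose definition the headers do not give. Rows with a single read often had rates between 0 and 1, so it is not a share of reads, and it is printed in percent. Converted reads were deposited as FPKM by the authors.

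The 8 genes and all lists were chosen with earlier results of these data known. Each gene kept its transcript row of highest mean, and overlaps with neighbouring genes came from RefSeq (GRCh38.p14), used for names, neighbours and promoters only. Of 25396 rows with no name in the file, 24846 were named through that table. Values were tested with limma 3.58.1 (R 4.3.3; empirical Bayes with a variance trend) in a single model of 8 libraries. All reads and FPKM were tested as log2(value + 1) with a mean of at least 1. Conversion was tested as log2(percent + 0.5) with a mean of at least 5 CPM. The index of newly made RNA was tested as log2(value + 0.1) with a mean of at least 0.2, and for it and for conversion each library's median was set to 0. P-values were adjusted by the Benjamini-Hochberg method over every gene tested, with a threshold of 0.05. P-values measure the spread between biological replicates, and counting error alone is larger for genes with few reads. Alternatives were other pseudocounts, filters, scalings, rows and sample sets, and edgeR 4.0.16 and DESeq2 1.42.0 on the recovered reads. The fits were tested on simulated data for induced mutant against vehicle, with noise drawn independently for each gene and library. With 200 genes changed by log2 2, 173 of 200 were called in all reads, 197 in conversion, 187 in newly made RNA and 137 in converted reads, and with log2 1, 28, 165, 68 and 0. In the real libraries many genes deviate together, which this noise leaves out, so these counts do not measure the power of the real comparisons. Named genes were the 8 genes, up to 4 genes per list and comparison with the smallest p in converted reads, and the 3 closest profiles to MYC in each table. Some genes that the rule took, 1 of them past the threshold in converted reads between induced mutant and vehicle, are not reported here, and a count given for a list covers that list alone. Plots were drawn with matplotlib 3.10.9 and tables with pandas 2.3.3 (Python 3.11.15).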

Additional observations from a re-analysis of the deposited data

How the results depend on the processing

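The count of the 8 genes called stayed at 0 in 223 alternative fits. The 2 exceptions came from a limma fit with the library's converted share as a covariate, added after seeing the data. In it 1 gene, MXD3, was called between induced mutant and vehicle in newly made RNA (adjusted p 0.0169) and in converted reads (adjusted p 0.0363). That covariate also raised the calls over all genes in this comparison. In converted reads they rose from 23 to 179 of 5737 genes, and in all reads from 4 to 534 of 12458. The number of all genes it called in newly made RNA is not given here. The MYC log2 fold change in all reads between induced wild type and vehicle changed sign with that covariate (-0.29), median centring (-0.13), edgeR with TMM (-0.15), edgeR with library totals (-0.029) and DESeq2 (-0.17), and ran from -0.34 to 0.21 with 1 library left out. The MXD3 log2 fold change in all reads between induced mutant and induced wild type changed sign with median centring (0.0020), edgeR with TMM (0.0150) and DESeq2 (0.0208), and ran from -0.34 to 0.080 with 1 library left out. MYC in converted reads between induced mutant and vehicle ran from -0.66 to 0.047 with 1 library left out, the last without vehicle C. Whether the replicate letters pair the libraries was not settled. Same-letter deviations from the group means correlated between -0.745 and 0.737, and different-letter deviations between -0.795 and 0.795. In a group of 2 libraries the deviations mirror each other, so these correlations cannot decide it. A replicate block called 0 of the 8 genes in each comparison. Over the whole table the count of genes called varied more. In converted reads between induced mutant and vehicle, 23 genes were called, against 0 without a variance trend, 149 with the replicate block, 2 with only these groups, 1 with a pseudocount of 0.1, 41 with median centring, 93 with quantile normalization, 179 with the converted share as a covariate, and 0 to 68 with 1 library left out. In all reads DESeq2 called 72 genes between induced mutant and vehicle where limma called 4. Depth limits MXI1 most, at 9 to 64 reads.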

Other observations

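The converted table and the product of all reads and conversion rate rank the network genes differently. Over 5345 genes measured in both, mean converted FPKM was 0.293 times the mean index of newly made RNA for MYC, which placed it at the 1.18th percentile of that ratio, against 22.6 times for MAX (99.2nd percentile) and 13.3 times for MXD3 (97.3rd percentile). The median gene had 2.67. For MAX and MXD3 both measures come from the rows that overlap FNTB and PRELID1, and the part of that overlap in these ratios was not tested. The headers do not say how transcript length enters the FPKM values.

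The gap between the conversion rates of the MXD3 rows was unusual in the table. Among 1670 genes with at least 1 further row of a different value and rows of at least 10 CPM, the other row's mean rate was 1.00 times that of the kept row at the median and 5.39 times for MXD3, which ranked 3 from the top, and 12 genes reached 2 times.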
